A study of Mus musculus with 11 samples.

Results

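Of the 20475 genes in each of the 2 deposited expression tables, 10 were followed here as genes of the integrated stress response: Atf4, Atf5, Ddit3, Trib3, Asns, Chac1, Sesn2, Psat1, Phgdh and Hspa5. They were chosen by symbol, and all 10 were found once in each table. RNA-seq had been performed on E12.5 mouse forebrain, which the paper calls cortex, in a germline and an inducible knockout of Kif20a, a mitotic kinesin of dividing neural progenitors. The germline comparison had 3 libraries of wild-type and 3 of knockout tissue; in these knockout-first mice Kif20a is interrupted by a LacZ and neomycin resistance cassette. The inducible comparison had 2 libraries of wild-type and 3 of knockout tissue, the knockouts carrying Nestin-CreERT2 and Kif20a fl/fl. Nestin-CreERT2 is a Cre recombinase active in Nestin-expressing cells once tamoxifen is given, and pregnant mice had received it at E9.5 and again at E10.5. The control libraries of the inducible comparison are labelled wild type, and controls of this cross are described in the paper as Kif20a fl/fl without Cre. Wild-type and mutant tissue came from littermates, and whether a library held 1 embryo or several was not stated in the sources used here, so the p-values measure the spread between these libraries.

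The integrated stress response begins when 1 of several kinases phosphorylates the translation factor eIF2alpha. Most translation is then slowed, while the Atf4 mRNA is translated more efficiently, and ATF4 protein turns on genes for amino acid supply, redox balance, feedback and, under lasting stress, cell death. Because ATF4 is controlled largely at translation, the level of its mRNA is not a measure of its activity, and its targets are the usual readout in RNA data. HSPA5 belongs to the neighbouring unfolded protein response of the endoplasmic reticulum, where the kinase PERK phosphorylates eIF2alpha. In developing cortex the pathway is known from proliferating progenitors, in which the unfolded protein response is high, and from microcephaly models.

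Promoter sequences are shown for the genes on which the results turn, taken from RefSeq (GRCm38.p6; 250 bases before to 50 after a transcription start). All 10 genes matched, with 12 windows. ATF4 acts with C/EBP proteins at the C/EBP-ATF response element, whose core TGATGNAA was searched on both strands. The core was present in the windows of 3 of the 10 genes, Chac1, Trib3 and Asns, compared with 4.51% of the 27025 genes with a window. Of the 10 genes only Hspa5 held CCAAT and CCACG with 9 bases between them, the endoplasmic reticulum stress element bound by NF-Y and ATF6, which 0.137% of genes held. The cores are in capitals and each run is read 5′ to 3′ on the strand of its gene. These matches describe letters in a window and are not evidence of binding.
Chac1: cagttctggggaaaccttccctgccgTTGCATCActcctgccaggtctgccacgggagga
Trib3: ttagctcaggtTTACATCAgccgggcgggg
Asns: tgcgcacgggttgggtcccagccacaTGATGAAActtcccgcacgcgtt
Hspa5: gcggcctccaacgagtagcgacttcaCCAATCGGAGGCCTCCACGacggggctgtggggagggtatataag

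The Chac1 run lies at chr2:119351023-119351082 on the plus strand, with an antisense core from 193 to 186 bases before the start. The Trib3 run lies at chr2:152344028-152344057 on the minus strand, with an antisense core 15 to 22 bases into the transcript. The Asns run lies at chr6:7693210-7693258 on the minus strand, with its core 23 to 16 bases before the start. The Hspa5 run lies at chr2:34771999-34772069 on the plus strand, with its element 65 to 47 bases before the start. The reads themselves were aligned to mm9, the older build, so these coordinates do not apply to the expression tables.

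In wild-type tissue the 10 genes spanned a wide range of levels. Per kilobase of exon in the germline table, Hspa5 was highest at 1960 ± 151 normalized counts (SD, n = 3). It was followed by Psat1 at 985 ± 239, Atf4 at 897 ± 110 and Phgdh at 565 ± 69.4, with Psat1 and Atf4 overlapping between libraries. Atf5 at 195 ± 22.4 and Asns at 158 ± 23.1 also overlapped, then came Ddit3 at 72.3 ± 1.68 and Sesn2 at 23.1 ± 6.82. Chac1 at 4.23 ± 1.92 and Trib3 at 3.63 (2.47 to 4.87) were the lowest and overlapped each other. The order was the same in the inducible table except that Atf4, at 2149 ± 61.0 (n = 2), was above Psat1, at 1643 ± 58.2. The serine synthesis enzymes and the chaperone were thus abundant in wild-type forebrain, while the stress-inducible Trib3 and Chac1 were the lowest of the 10. Lengths were taken from an mm9 annotation other than the one the authors used, and the tables were normalized separately, so levels are comparable only within a table.

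The targeted gene was checked first. Germline wild-type libraries had 2456, 2295 and 2680 normalized counts of Kif20a and germline knockouts 409, 374 and 503. Inducible controls had 4760 and 4844 and inducible knockouts 3125, 2915 and 2853. Its log2 fold changes were -2.54 ± 0.15 (SE) and -0.70 ± 0.06, with limma adjusted p (Benjamini-Hochberg) of 0.00845 and 0.0107. Kif20a was thus lower in every knockout library than in its controls, by less in the inducible than in the germline knockouts. The paper places the signal remaining in the germline knockouts in the first exons of the gene and relates it to the knockout-first design. Some exon bases of Kif20a overlap Cdc23 on the other strand.

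The germline knockouts differed from wild-type in their cell type markers. For neuron, cranial mesenchyme, erythroid and progenitor markers, knockout 2 differed in the opposite direction to knockouts 1 and 3. In knockout 2 the summed neuron markers reached 104456 normalized counts, compared with 49749 to 59196 in the wild-type libraries and 26230 and 32976 in knockouts 1 and 3. Its cranial mesenchyme markers summed to 173, compared with 4468 to 8451 in wild-type and 20604 and 10320 in knockouts 1 and 3. Its microglia, endothelium and erythroid sums, at 31.4, 833 and 34423, were also below every wild-type library (lowest 474, 1604 and 98054), while radial glia and progenitor markers, at 61825, were slightly above them (highest 55461). Knockouts 1 and 3 had erythroid sums of 153759 and 161874, slightly above the highest wild-type library at 150889. Their radial glia and progenitor sums, at 49240 and 49564, were slightly below the lowest wild-type library at 50781. No marker of these lists was under 3 counts in every library. However, only 3 of 10 microglia and 5 of 10 cranial mesenchyme markers had at least 3 counts in each germline library. The part of tissue composition in the results was not tested, and in bulk tissue fewer cells of a type cannot be told apart from less RNA per cell.

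Trib3 was the clearest difference among the 10 genes. The gene (chr2:152163158-152169768 in mm9, minus strand) encodes a pseudokinase that is induced by ATF4 and feeds back on it. Trib3 had 5.25, 10.4 and 7.51 normalized counts in germline wild-type libraries and 24.8, 20.9 and 24.1 in knockouts. All 3 knockouts were above all wild-type libraries and were close to one another. The group means were 7.70 ± 2.56 and 23.3 ± 2.04 (SD, n = 3 each), a ratio of 3.02. In the fit the log2 fold change was 1.52 ± 0.43 (95% interval 0.50 to 2.53), with an unadjusted limma P of 0.00955 and a Benjamini-Hochberg adjusted p of 0.779 over 13938 genes. The two-sided exact permutation p was 0.1, the smallest that 3 against 3 libraries can give. The difference rests on few reads, roughly 7, 7 and 9 in wild-type libraries and 21, 23 and 24 in the knockouts. It passed both thresholds of the study, a fold of 1.5 or more with P of 0.05 or less before adjustment, whichever library was left out (log2 fold changes 1.30 to 1.73), and was 1.59 without knockout 2.

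Chac1 (chr2:119176965-119180117 in mm9, plus strand), which encodes a glutathione-degrading enzyme downstream of ATF4 and CHOP, showed a larger but uneven difference. It had 5.18, 10.6 and 5.04 normalized counts in wild-type libraries and 31.8, 48.6 and 9.05 in knockouts 1, 2 and 3. Knockouts 1 and 2 were well above wild-type, whereas knockout 3 lay inside the wild-type range. The log2 fold change was 1.75 ± 0.69 with an unadjusted limma P of 0.0384, an adjusted p (Benjamini-Hochberg) of 0.779 and an exact permutation p of 0.2. Chac1 passed both thresholds with all libraries, but it no longer did without wild-type 1, wild-type 3, knockout 1 or knockout 2 (log2 fold changes of 1.60, 1.59, 1.56 and 1.27, with unadjusted limma P of 0.104, 0.0997, 0.106 and 0.0802). Here too the reads were few, roughly 6 to 7 in wild-type libraries and 27, 53 and 9 in the knockouts.

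These were the only members past both thresholds in the germline comparison, so that 2 of 10 were called higher, compared with 2.07% of all genes tested. None of the 10 was called lower, compared with 0.667% of all genes. No member had an adjusted p at or under 0.05, and Kif20a was the only gene in the table that did, although 751 genes (5.39%) had an unadjusted P at or under 0.05. Trib3 and Chac1 had wild-type means under 10 and passed the filter of a mean of at least 10 normalized counts through their knockout libraries, so nothing is read from this count. The median log2 fold change of the 10 was 0.33, compared with -0.04 for all genes, but it was 0.06 without knockout 2 and 0.50 without knockout 3. Leaving out knockout 1 left 1 member called, Trib3, and leaving out knockout 3 gave 4, with Asns added as higher and Psat1 as lower.

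**Figure D1:**
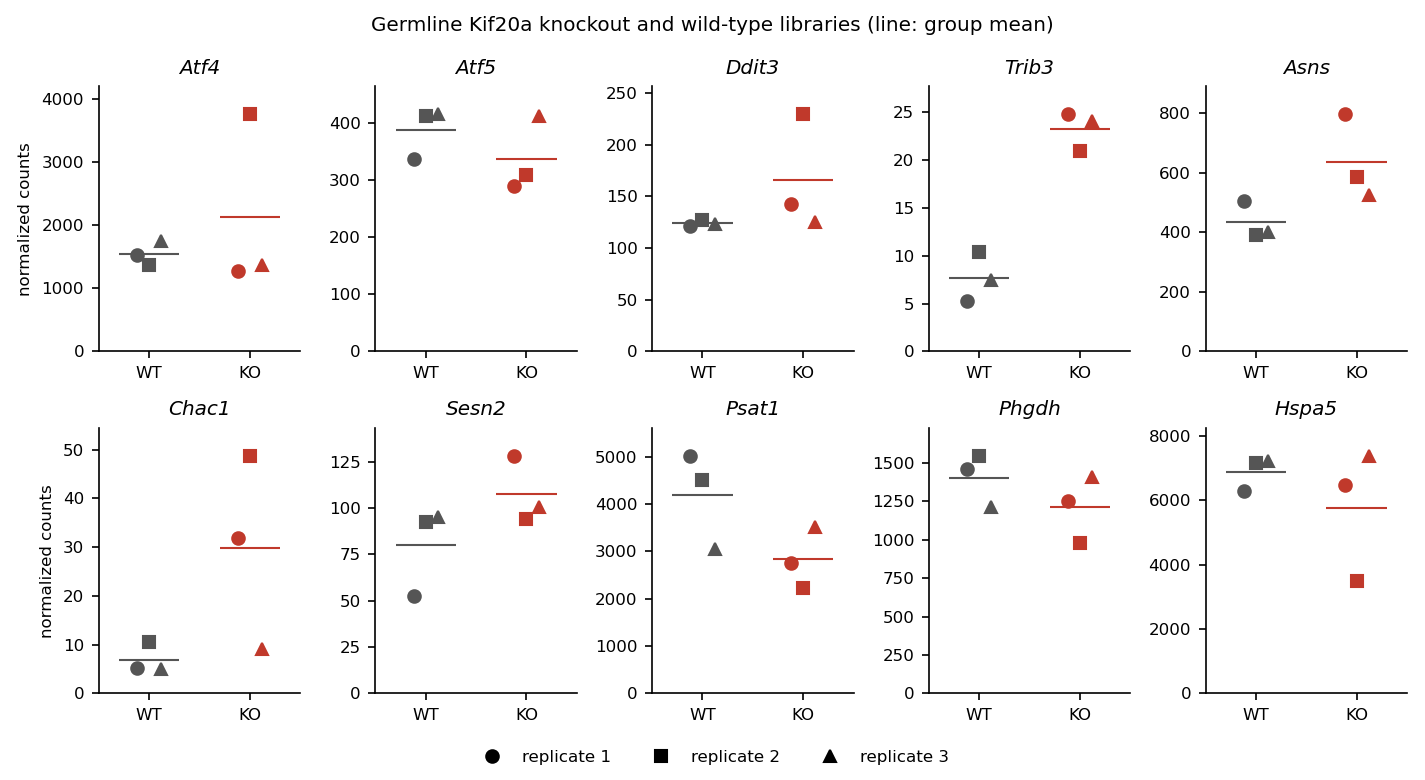
Normalized counts (vertical axes, each from 0) of the 10 genes in the germline wild-type (WT, grey) and knockout (KO, red) libraries; each point is 1 library, its shape the replicate number, and the line the group mean. The 3 Trib3 knockout points lie between 20.9 and 24.8, all above the wild-type points, whereas for Atf4 a single knockout point, at 3755, lies above the wild-type points.

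Asns (chr6:7625169-7643254 in mm9, minus strand) encodes asparagine synthetase, a direct ATF4 target. It had 506, 392.3 and 401 normalized counts in wild-type libraries and 795, 584 and 526 in knockouts. The groups did not overlap, although the lowest knockout was only slightly above the highest wild-type library. The log2 fold change was 0.54 ± 0.20, a fold of 1.45 that lay just under the threshold of 1.5, with an unadjusted limma P of 0.0312 and an adjusted p (Benjamini-Hochberg) of 0.779. It passed both thresholds without wild-type 1 (0.65), knockout 2 (0.59) or knockout 3 (0.66), and its unadjusted limma P was above 0.05 without wild-type 2, wild-type 3 or knockout 1 (0.0979, 0.0951 and 0.101). Trib3 and Asns were thus the 2 of 10 members in which all germline knockouts were above all wild-type libraries, compared with 5.9% of all genes. As Trib3 passed the filter on low values through its knockout libraries, nothing is read from this count either. No member had all knockouts below all wild-type libraries, compared with 7.55%.

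Among the transcription factors, Atf4 itself (chr15:80085614-80087970 in mm9, plus strand) had 1526, 1368 and 1745 normalized counts in wild-type libraries and 1280, 3755 and 1365 in knockouts 1, 2 and 3. Only knockout 2 was above the wild-type libraries, and the other knockouts were below the lowest wild-type library. The log2 fold change was 0.28 ± 0.40, with an exact permutation p of 1, and it was -0.22 ± 0.14 without knockout 2 (unadjusted limma P of 0.150). Ddit3, which encodes the pro-apoptotic factor CHOP, had 122, 127 and 123 in wild-type libraries and 142, 229 and 126 in knockouts. Knockout 2 was again the highest, and the log2 fold change was 0.37 ± 0.26 with it and 0.11 without it. Atf5, whose mRNA is translated in a similar way to that of Atf4, had 336, 412 and 415 in wild-type libraries and 290, 309 and 413 in knockouts. Its groups overlapped, with a log2 fold change of -0.21 ± 0.19. Ddit3 shares 81 exon bases with Mars and Atf5 shares 164 with Il4i1 and Nup62, all on the opposite strand, and counting by strand was not stated.

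Sesn2, a stress-induced inhibitor of mTORC1, had 52.8, 92.7 and 94.9 normalized counts in wild-type libraries and 128, 94.2 and 100 in knockouts. The knockouts were at or above most wild-type libraries, but knockout 2 lay just under wild-type 3. Its log2 fold change was 0.45 ± 0.30 and did not pass the thresholds (unadjusted limma P of 0.177), and it was 0.18 without wild-type 1.

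The serine synthesis enzymes did not share the higher values of Asns. Psat1, the aminotransferase of the pathway, had 5005, 4516 and 3052 normalized counts in wild-type libraries and 2751, 2227 and 3515 in knockouts. All 3 knockouts were below the wild-type mean, but knockout 3 exceeded wild-type 3. Its log2 fold change was -0.56 ± 0.24, with an unadjusted limma P of 0.0518. Without knockout 3 it was -0.73 and without wild-type 3 it was -0.77, both past the thresholds (unadjusted limma P of 0.0261 and 0.0127). Phgdh, the first enzyme of the pathway, had 1460, 1542 and 1211 in wild-type libraries and 1254, 978 and 1412 in knockouts. Its groups overlapped, with a log2 fold change of -0.22 ± 0.18, which was -0.07 without knockout 2.

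Hspa5, the major chaperone of the endoplasmic reticulum (BiP), had 6276, 7145 and 7233 normalized counts in wild-type libraries and 6472, 3483 and 7363 in knockouts. Knockout 2 was the lowest of all, and the other 2 knockouts were close to the wild-type libraries. For Hspa5 the log2 fold change was -0.32 ± 0.28, and without knockout 2 it was 0.0067. Thus the library with the highest Atf4 and Ddit3 had the lowest Hspa5, Psat1 and Phgdh.

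Bnip3, a mitochondrial receptor for autophagy and a widely used marker of hypoxia, was set beside these genes in the same libraries. It had 420, 410 and 447 normalized counts in germline wild-type libraries and 4459, 6621 and 515 in knockouts 1, 2 and 3. Knockouts 1 and 2 were 10.5 and 15.6 times the wild-type mean, and knockout 3 was 1.21 times it, slightly above the highest wild-type library. The log2 fold change was 2.54 ± 0.87 with an unadjusted limma P of 0.0218. The adjusted p (Benjamini-Hochberg, limma) was 0.779 with all libraries and 0.00792 without knockout 3. As knockout 3 is the knockout with the lowest Bnip3, leaving it out selects libraries by Bnip3 itself. Nothing is read from that lower value. Leaving out wild-type 1, wild-type 2 or knockout 1 took its P in limma above 0.05, to 0.0591, 0.0573 and 0.0697.

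The members fell into different patterns against Bnip3. Measured from the wild-type mean on the log2 scale, Bnip3 differed by 3.39, 3.96 and 0.28 in knockouts 1, 2 and 3. Chac1 followed the same order, with 2.12, 2.71 and 0.41. Trib3 did not, with 1.61, 1.38 and 1.57, so that knockout 3, where Bnip3 was only 1.21 times the wild-type mean, had as much Trib3 as the others. Asns was intermediate, with 0.89, 0.44 and 0.29. Atf4 was high in only 1 of the 2 knockouts with high Bnip3, with -0.27, 1.29 and -0.17. Ddit3 followed the order of Bnip3 with smaller differences, of 0.20, 0.88 and 0.02. Its knockouts 1 and 2 were above all wild-type libraries and knockout 3 lay inside their range. Psat1 differed by -0.58, -0.88 and -0.22, and its lowest value was in the knockout with the highest Bnip3. With 3 knockouts these orders are descriptions and were not tested.

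**Figure D2:**
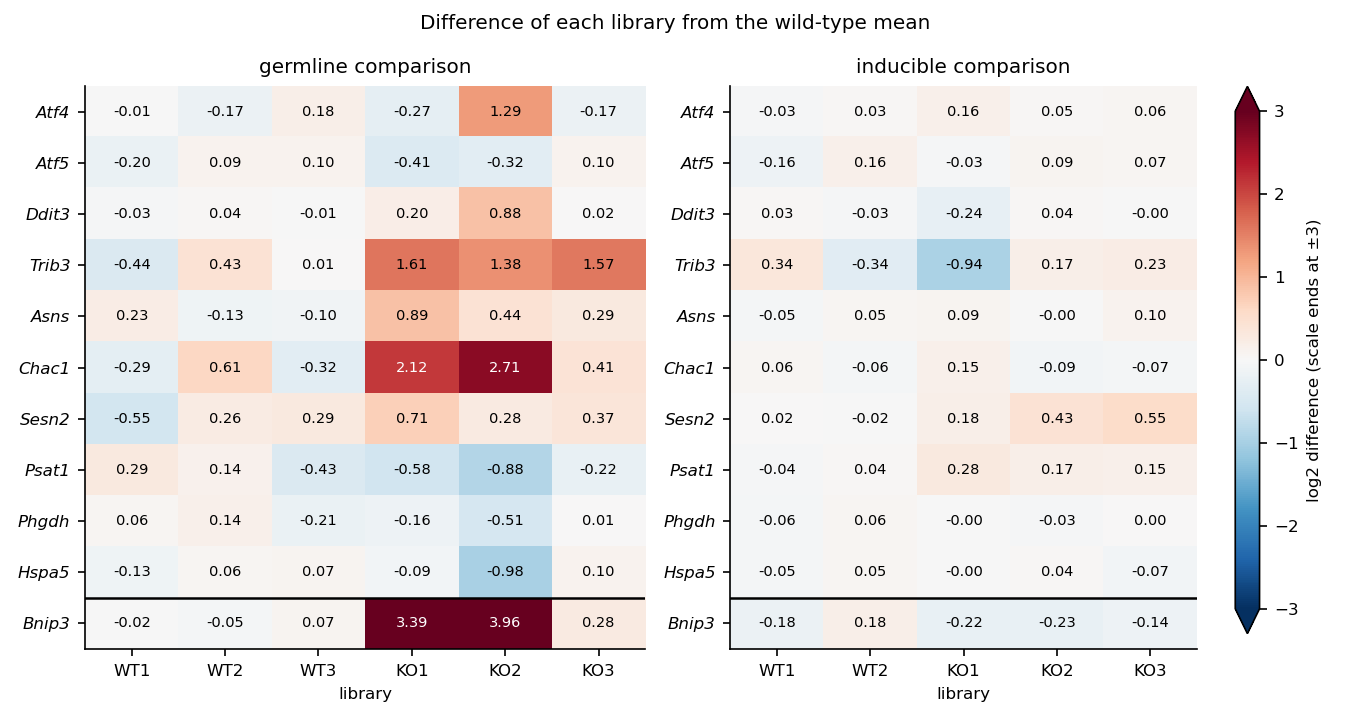
Log2 difference of each library (columns) from the mean of the wild-type libraries of its comparison, for the 10 genes and, under the line, Bnip3; red is higher, blue lower, and the colour scale ends at ±3. In the germline panel Bnip3 and Chac1 are dark in KO1 and KO2 only, Trib3 is raised in all 3 knockouts, and the inducible panel is pale except for Trib3 in KO1 and Sesn2 in KO2 and KO3.

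At the same thresholds none of the 10 genes was called in either direction in the inducible comparison, compared with 0.802% of all genes called higher and 0.49% called lower. In limma 2 members, Sesn2 and Psat1, had an unadjusted P at or under 0.05. All knockouts were above all wild-type libraries in 3 of the 10 (Atf4, Sesn2 and Psat1), compared with 10.4% of all 14081 genes tested, and all were below in 0, compared with 12.2%. The 4 Y-linked genes checked summed to 1.96 and 4.24 in wild-type libraries and to 2389 to 3209 in knockouts. Sex and genotype therefore cannot be told apart in the inducible comparison. In the germline comparison both groups were mixed, with sums of 1714, 9.83 and 4582 in wild-type libraries and 4.49, 0 and 1376 in knockouts 1, 2 and 3. The 2 germline knockouts with high Bnip3 were thus those with little or none of these transcripts. Summed neuron, progenitor, erythroid, endothelium and mesenchyme markers of the inducible libraries overlapped between groups, while those of microglia were 815 and 840 in wild-type libraries and 842 to 1150 in the knockouts.

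The genes called in the germline knockouts were not called here. Trib3 had 36.5 and 22.6 normalized counts in wild-type libraries and 14.4, 32.5 and 33.8 in inducible knockouts. The groups overlapped, with wild-type 1 the highest and knockout 1 the lowest, and the log2 fold change was -0.18 ± 0.42 (95% interval -1.17 to 0.81). Chac1 had 25.6 and 23.5 in wild-type libraries and 27.2, 23.0 and 23.4 in the knockouts. Its log2 fold change was -0.0026 ± 0.25, with an interval of -0.58 to 0.57. Asns, at 951 and 1023 in wild-type libraries and 1051, 985 and 1056 in the knockouts, had a log2 fold change of 0.06 ± 0.07 (interval -0.10 to 0.22). The upper bounds for all 3 genes were below the log2 fold changes fitted in the germline comparison. The germline intervals nevertheless overlapped the inducible ones, at 0.50 to 2.53 for Trib3, 0.12 to 3.37 for Chac1 and 0.06 to 1.01 for Asns. The difference between the comparisons was not tested because each table was normalized alone, and Kif20a itself was lowered less in the inducible knockouts (-0.70 compared with -2.54).

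Sesn2 had the largest difference of the 10 in the inducible comparison. It had 239 and 232 normalized counts in wild-type libraries and 267, 318 and 346 in knockouts. The groups did not overlap, and the log2 fold change was 0.39 ± 0.13, a fold of means of 1.31. Its unadjusted limma P was 0.0192 and its adjusted p (Benjamini-Hochberg) was 0.825. Psat1 had 6814 and 7164 in wild-type libraries and 8496, 7845 and 7738 in the knockouts. These groups did not overlap either, with a log2 fold change of 0.20 ± 0.06, an unadjusted limma P of 0.0116 and an adjusted p (Benjamini-Hochberg) of 0.798. Psat1 thus differed in opposite directions in the 2 comparisons.

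Atf4 had 3631 and 3780 normalized counts in inducible wild-type libraries and 4131, 3824 and 3862 in knockouts. The lowest knockout was only slightly above the highest wild-type library, and the log2 fold change was 0.09 ± 0.06 (unadjusted limma P of 0.157). Ddit3 had 225 and 215 in wild-type libraries and 186, 226 and 220 in the knockouts, with a log2 fold change of -0.07 ± 0.13. Atf5, Phgdh and Hspa5 had overlapping groups and log2 fold changes of 0.04 ± 0.10, -0.01 ± 0.05 and -0.01 ± 0.06. Bnip3, at 511 and 658 in wild-type libraries and 498, 496 and 525 in the knockouts, had a log2 fold change of -0.20 ± 0.11. No inducible library had the high Bnip3 of germline knockouts 1 and 2 relative to its own controls.

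**Figure D3:**
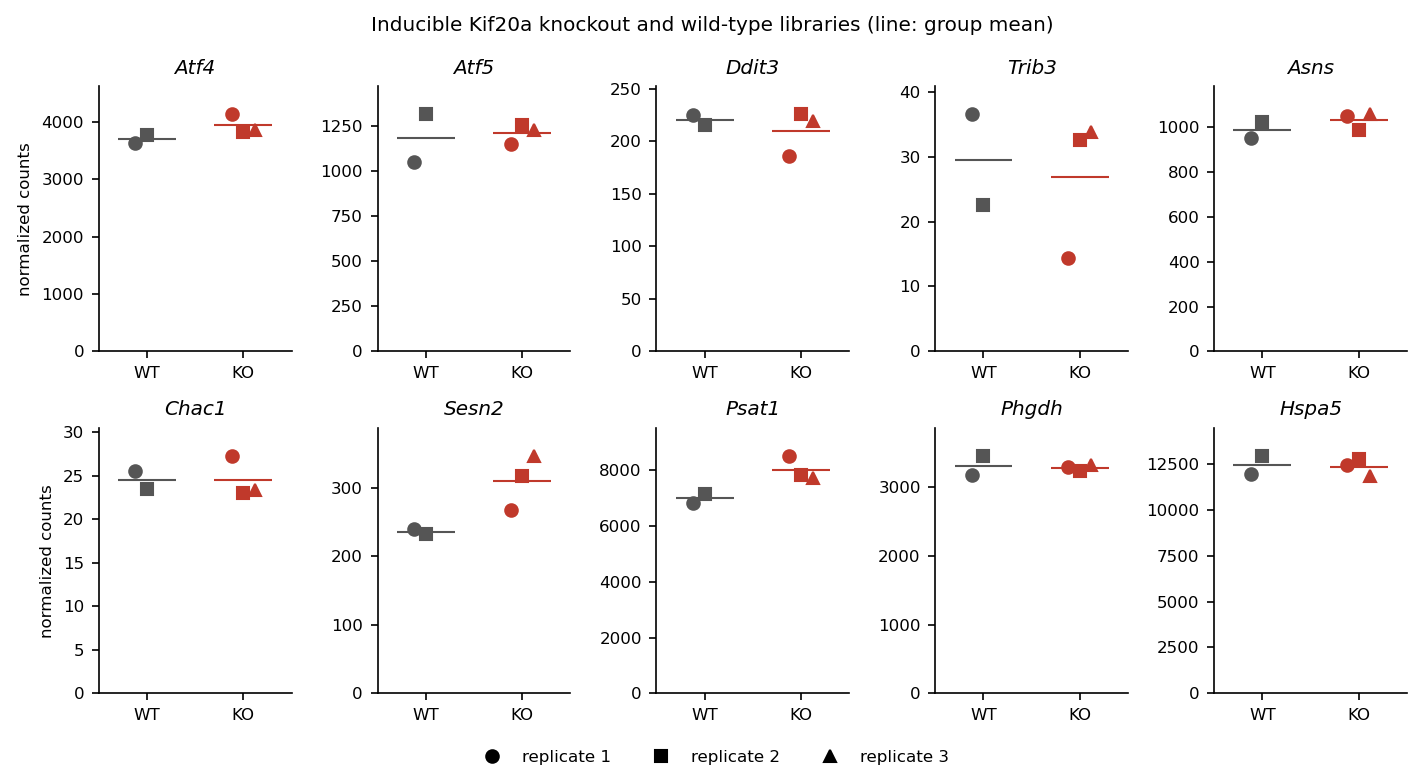
Normalized counts (vertical axes, each from 0) of the 10 genes in the inducible wild-type (WT, grey, 2 libraries) and knockout (KO, red, 3 libraries) samples; each point is 1 library, its shape the replicate number, and the line the group mean. Sesn2 and Psat1 knockout points lie above both wild-type points, and the Trib3 and Chac1 points of the groups overlap.

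Other genes of the pathway were read from lists. The kinases, the subunits of eIF2 and eIF2B and the phosphatase subunits for eIF2alpha, which act before ATF4, held 14 tested genes, none of which was called in either comparison. Their median log2 fold changes were -0.09 in germline and 0.01 in inducible knockouts. Ppp1r15a, the stress-induced phosphatase subunit GADD34, had 175, 165 and 163 normalized counts in germline wild-type libraries and 207, 332 and 156 in the knockouts, highest in knockout 2 as Ddit3 was. Its log2 fold change was 0.39, and 0.10 without knockout 2. Eif2ak1, the heme-regulated kinase, had a germline log2 fold change of -0.32 ± 0.12 (unadjusted limma P of 0.0357), with all knockouts below all wild-type libraries. Eif2s3x, the X-linked gamma subunit of eIF2, had an inducible log2 fold change of -0.52 ± 0.06 and an adjusted p (Benjamini-Hochberg, limma) of 0.0581. This gene has a Y-linked partner and is a known difference between the sexes, which here coincided with genotype. Eif2ak2, the kinase activated by double-stranded RNA, had an inducible log2 fold change of 0.29 ± 0.27.

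Among 16 tested factors and signalling targets of ATF4, 2 were called higher in the germline knockouts, compared with 2.07% of all genes. The median log2 fold change of the list was 0.52, but it was 0.24 without knockout 2, 0.33 without knockout 1 and 0.24 when genes of low mean were kept. Ddit4, also of this list, is among the genes the paper gives as raised in the germline knockouts. It did not pass both thresholds in this fit, and the paper's methods name no test for its P-values. Stc2, a secreted glycoprotein, had 40.9, 36.0 and 31.5 normalized counts in wild-type libraries and 360, 748 and 36.2 in the knockouts. Vegfa, the angiogenic growth factor that is also a hypoxia target, had 1012, 821 and 1109 in wild-type libraries and 5202, 11873 and 1302 in the knockouts. Both followed the order of Bnip3, with knockout 3 at or just above wild-type levels. Their log2 fold changes were 2.55 ± 1.00 and 2.15 ± 0.71 (unadjusted P of 0.0387 and 0.0194 in limma). Of the 6 fits that left out a library, Stc2 was called only in that without knockout 3 (log2 fold change 3.81), and Vegfa was lost without wild-type 1, wild-type 2 or knockout 1 (P of 0.0511, 0.0595 and 0.0535 in limma). Without knockout 2 the log2 fold changes were 1.65 for Stc2 and 1.42 for Vegfa. For Ndrg1, a stress-responsive gene and the 1 gene of the list called higher in the inducible knockouts (0.802% of all genes), the values were 31.5 and 26.7 in wild-type libraries and 46.6, 54.5 and 60.3 in the knockouts. Its log2 fold change was 0.86 ± 0.22 with an unadjusted limma P of 0.00509 and an adjusted p (Benjamini-Hochberg) of 0.739. Its level ranged from 13.5 to 172 among the germline wild-type libraries and from 18.1 to 271 among the knockouts.

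Amino acid transport and one-carbon genes included some that, like Trib3, were higher in all 3 germline knockouts than in all wild-type libraries. This held for 1 of 9 tested transporters and 3 of 12 tested enzymes, compared with 5.9% of all genes. All knockouts were below all wild-type libraries in 2 of the transporters and 0 of the enzymes, compared with 7.55%. Slc1a5, a glutamine transporter and the 1 gene called higher of 9 tested transporters (2.07% of all genes), had 312, 292 and 371 normalized counts in wild-type libraries and 506, 589 and 483 in the knockouts. The groups were well separated, and the log2 fold change was 0.70 ± 0.16 with an unadjusted limma P of 0.00356. Of 12 tested enzymes of serine, glycine, one-carbon, proline and sulfur amino acid metabolism, 2 were called higher, compared with the same 2.07% of all genes. Pycr1, a proline synthesis enzyme, had 81.1, 83.5 and 85.3 in wild-type libraries and 139, 132 and 120 in the knockouts. Mthfd1l, a mitochondrial formyltetrahydrofolate synthetase, had 191, 188 and 283 in wild-type libraries and 483, 344 and 310 in the knockouts. The log2 fold changes were 0.64 ± 0.20 and 0.78 ± 0.25 (unadjusted P of 0.0143 and 0.0163 in limma), and all 3 of these genes had an adjusted p (Benjamini-Hochberg, limma) of 0.779. Slc1a5 and Pycr1 were called whichever library was left out, and Mthfd1l was lost without wild-type 1, wild-type 2 or knockout 1 (unadjusted limma P of 0.0575, 0.0597 and 0.0549).

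The median log2 fold changes of these lists were 0.17 for the transporters and 0.02 for the enzymes, and when a library was left out they ranged from 0.05 to 0.27 and from 0.01 to 0.17. Slc3a2, the heavy chain shared by several transporters, had 793, 793 and 798 normalized counts in germline wild-type libraries and 1027, 2107 and 751 in the knockouts, without passing the thresholds (log2 fold change 0.56 ± 0.35). It passed them without knockout 3, at 0.89, whereas without knockout 2 it was 0.14 (unadjusted limma P of 0.386). The low Slc7a3 (log2 fold change 0.52 ± 0.39) was not called, and in the inducible comparison its value was -0.38 ± 0.28. Slc7a1, an arginine transporter, had a log2 fold change of -0.16 ± 0.13 in germline and 0.21 ± 0.08 in inducible knockouts. No gene of either list was called in the inducible comparison, with medians of 0.02 and 0.01.

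**Figure D4:**
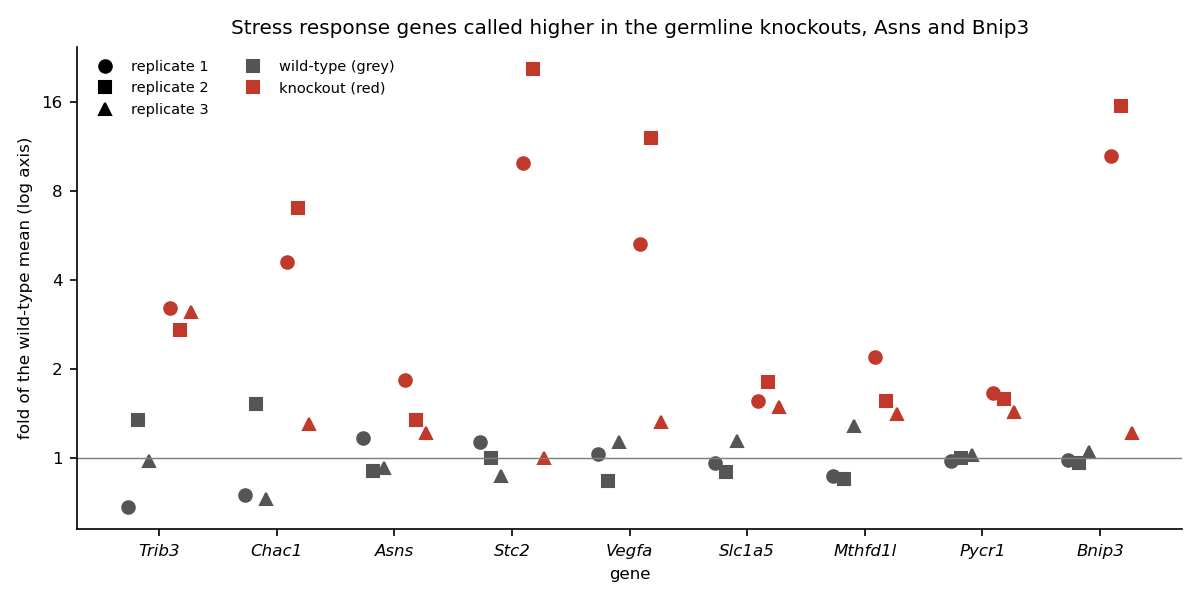
Fold of the germline wild-type mean (log axis) in each germline library for the stress response genes past both thresholds, for Asns and for Bnip3; grey points are wild-type, red points knockout, and shapes are replicate numbers. Knockout 3 (red triangle) is at 3.13 for Trib3 and above all wild-type points for Asns, Slc1a5, Mthfd1l and Pycr1, but at 1.31 for Chac1 and 1.21 for Bnip3.

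The aminoacyl-tRNA synthetases and the endoplasmic reticulum genes, which often rise with ATF4 or with Hspa5, had no gene called in either comparison. The core TGATGNAA was in the windows of 5 of the 8 synthetase genes that had one in RefSeq, and the endoplasmic reticulum stress element in those of 7 of 17 endoplasmic reticulum genes. Genes holding either element thus included many that were not called. The 12 synthetases had median log2 fold changes of -0.10 in germline and 0.05 in inducible knockouts. Wars and Aars, the synthetases for tryptophan and alanine, had the largest germline values of the list, at -0.30 ± 0.18 and -0.22 ± 0.19. Those of the inducible comparison were Yars and Gars, for tyrosine and glycine, at 0.13 ± 0.07 and 0.08 ± 0.05. The 20 chaperones and factors of the unfolded protein response had medians of -0.13 in germline, or -0.08 without knockout 2, and 0.03 in inducible knockouts. Dnajb9, an HSPA5 co-chaperone, had 338, 339 and 297 normalized counts in germline wild-type libraries and 224, 185 and 244 in the knockouts. Its groups did not overlap, and its log2 fold change of -0.58 ± 0.17 (unadjusted limma P of 0.0124) lay just short of the fold threshold. It passed both thresholds without wild-type 3, knockout 1 or knockout 3 (-0.64, -0.61 and -0.67). Dnajc3, another HSPA5 co-chaperone, had 921, 877 and 895 in wild-type libraries and 718, 357 and 891 in the knockouts, lowest in knockout 2 as Hspa5 was. Its log2 fold change was -0.55, and -0.16 without knockout 2. Dnajb9 and Sdf2l1 had the largest inducible values of the list, at 0.20 ± 0.09 and 0.14 ± 0.08.

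Hypoxia genes were the list with the most genes called. That list holds Bnip3 itself and, like the others, was written with earlier results of these data known, so its count is a description. Of 14 tested, 12 were called higher in the germline knockouts (Adm, Aldoa, Ankrd37, Bnip3, Ero1l, Ldha, P4ha1, P4ha2, Pdk1, Pfkfb3, Pgk1 and Slc2a1), compared with 2.07% of all genes, and the median log2 fold change was 1.79, or 1.19 without knockout 2. Their summed level was 21698 to 22068 normalized counts in wild-type libraries and 67231, 94665 and 25412 in knockouts 1, 2 and 3. Of the same 14 genes 0 were called in the inducible comparison, with a median of -0.12, and 3 (Slc2a1, Egln3 and Kdm3a) had an unadjusted limma P at or under 0.05, all with lower means in the knockouts. The germline hypoxia genes were thus highest in the libraries where Chac1, Stc2 and Vegfa were high, and their sum was slightly above the wild-type range in knockout 3, where Trib3 was as high as in the others. Whether hypoxia, genotype, sex or tissue composition accounts for either group of genes was not tested.

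**Figure D5:**
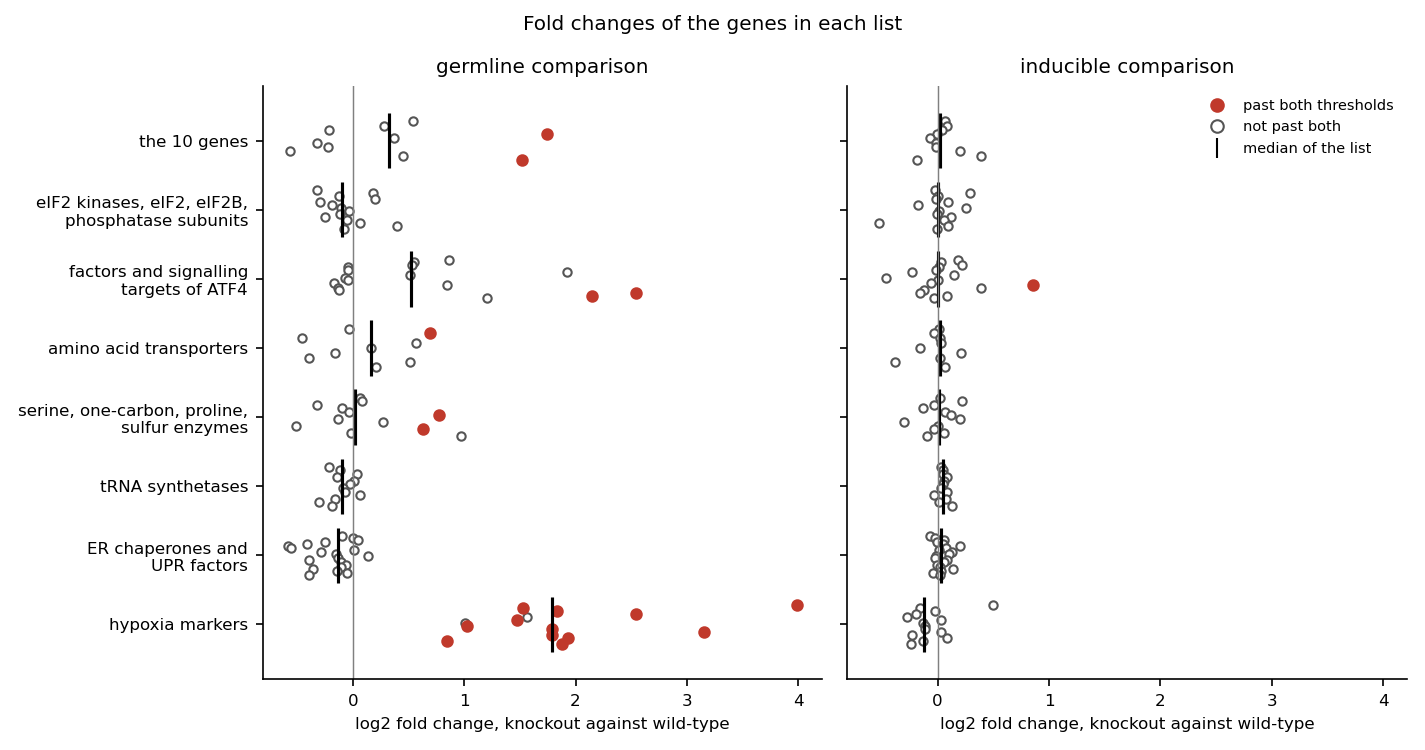
Log2 fold changes (horizontal axis, knockout against wild-type) of the tested genes of each list in the germline (left) and inducible (right) comparison; filled red points passed both thresholds, open points did not, and the bar is the median. The hypoxia genes stand at a median of 1.79 in the germline panel. There the synthetases and endoplasmic reticulum genes have medians of -0.10 and -0.13, with 3 of 12 and 4 of 20 above 0. In the inducible panel their medians are 0.05 and 0.03, with 11 of 12 and 13 of 20 above 0.

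The genes whose pattern was most like that of Atf4 over the 6 germline libraries were Inpp5b, Rab11fip2, Mtdh, Kctd7 and Nr1h2, with Pearson r of 0.987 to 0.999. As Atf4 stood out in knockout 2 alone, these are genes that also stood out in that library, and the depth and tissue composition of a library bear on all its genes. Of the other members Ddit3 had the highest r with Atf4, at 0.89, and Hspa5 the lowest, at -0.93, while Trib3 had 0.14, Asns 0.05 and Bnip3 0.57. Over the 5 inducible libraries the genes most like Atf4 were Gulp1, B2m, Zcrb1, Ppp2r1b and Nadsyn1. None of these was among the 5 found in the germline libraries.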

How the data were processed

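Poly(A) RNA of E12.5 forebrain was sequenced in 11 libraries. Per the labels and methods, the authors used TopHat to align reads to mm9 and counted them on RefSeq exons. The TopHat version is 1.2.0 in the submitters' processing notes, whereas the paper's methods name a later one. The deposited signal is a table per comparison of counts per gene, normalized by the authors with edgeR's trimmed mean of M-values and equalized between libraries, so it assumes that most genes do not change. The values are not whole, and whole reads could not be recovered, so no count model was fitted. Column totals were 13048716 to 15551274 in the germline and 24118520 to 24497307 in the inducible table, and 1 read was worth roughly 0.765 to 1.49 and 0.925 to 1.08 normalized counts. The reads behind a value are therefore approximate and cover counting only.

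Libraries were grouped by their labels. Values were analysed as log2(normalized count + 1) with limma 3.58.1 in R 4.3.3 (two-sided; lmFit, then eBayes with trend) for genes with a mean of at least 10, 13938 and 14081 genes. Fold changes are on this scale, which understates those of low genes. A gene was called at a fold of 1.5 or more with P of 0.05 or less before adjustment, the thresholds of the study, and p-values were adjusted by Benjamini-Hochberg over all genes tested. Members were also tested by exact permutation. The fit was tested on simulated data. The members, the lists and the rule for named genes were chosen with earlier results of these data known, and the lists were written from general knowledge. Named are the members, Kif20a, Bnip3, the genes of each list that were called or, with at most 1 called, the 2 with the largest change in each comparison, and the 5 genes most like Atf4. Slc2a1, Egln3 and Kdm3a were named for the inducible comparison after their values were seen. Deviations of same-numbered libraries from their group means had r of -0.12, 0.31 and 0.25 in the germline table, and those of differently numbered ones -0.36 to 0.33. In the inducible table they were -0.35 and -0.05, but with 2 wild-type libraries these values come in pairs of opposite sign and cannot show pairing. The labels state no pairing, so none was used, and pairing by litter is not excluded.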

Additional observations from a re-analysis of the deposited data

Results flagged for a closer look

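In these genes every knockout library lay on one side of the wild-type mean in the germline comparison and on the opposite side in the inducible comparison. The difference between the comparisons was not tested, since each table was normalized alone, and in the inducible comparison sex cannot be told apart from genotype. Among the members this held for Psat1, with log2 fold changes of -0.56 in germline and 0.20 in inducible knockouts. Bnip3 had 2.54 and -0.20. Of the transporters, Slc1a5 had 0.70 and -0.031, Slc7a3 had 0.52 and -0.38, and Slc7a1 had -0.16 and 0.21. Pycr1 had 0.64 and -0.030. The inducible values of Slc1a5 and Pycr1 were smaller in size than their SE, 0.065 and 0.12. The synthetase genes Yars and Gars had -0.19 and 0.13, and -0.14 and 0.084. Dnajb9 had -0.58 and 0.20. Outlying libraries were not sought by a test, because no group held more than 3 libraries.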

How the results depend on the processing

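The number of members called in the germline comparison was 2 under both other pseudocounts (0.1 and 10), without the filter on low values, with quantile normalization and with the replicate block, and 3 with array weights. It ranged from 1 to 4 when a library was left out. The number of other pathway genes called, 5, became 10 with array weights and 8 with the replicate block, and ranged from 2 (without wild-type 1 or 2) to 14 (without knockout 3), the cause not being tested. All genes called in the germline comparison, 382, became 1044 with array weights and ranged from 157 to 1229. In the inducible comparison no member was called under any alternative run, and all genes called, 182, became 357 without the filter, which tests more genes, and ranged from 126 to 322 when a library was left out.

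Directions that changed were of values that had not passed the thresholds. With array weights, germline Atf4 was -0.17, inducible Trib3 0.019, Hspa5 0.016 and Wars -0.0065. With the replicate block, inducible Chac1 was 0.029, Hspa5 0.019, Vegfa -0.021 and Wars -0.012. Quantile normalization gave -0.0037 for germline Eif2s3x. Leaving out a library took germline Atf4 from -0.22 to 0.56, Hspa5 from -0.53 to 0.0067, Ndrg1 from -0.065 to 1.99, Eif2s3x from -0.12 to 0.16 and Eif2ak2 from -0.019 to 0.54. Of the members in the inducible comparison it took Trib3 from -0.52 to 0.20, Chac1 from -0.077 to 0.058, Atf5 from -0.12 to 0.20, Ddit3 from -0.12 to 0.017, Phgdh from -0.071 to 0.048 and Hspa5 from -0.065 to 0.044. Of the other genes there it took Stc2 from -0.29 to 0.00089, Vegfa from -0.021 to 0.19, Slc1a5 from -0.0997 to 0.037, Mthfd1l from -0.041 to 0.29, Pycr1 from -0.17 to 0.11, Wars from -0.012 to 0.038, Eif2ak1 from -0.059 to 0.019 and Eif2ak2 from -0.013 to 0.49. The low counts of Trib3 and Chac1 made their germline log2 fold changes depend on the pseudocount, 0.92 and 1.10 with 10. The replicate block changed no call of a member. Over all alternatives the lowest adjusted p of a member (Benjamini-Hochberg, limma) was 0.210 in germline and 0.532 in inducible knockouts.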
